A study of Mus musculus with 6 samples.

Results

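The ubiquitin ligase gene Rnf146 and 7 genes around it were followed across 6 libraries of mouse melanoma tumours: Rnf146, its overlapping neighbour Echdc1, the tankyrases Tnks and Tnks2, the scaffold genes Axin1 and Axin2, the beta-catenin gene Ctnnb1 and the transcription factor gene Lef1. They are 8 of 20938 genes in the deposited table and were found there by symbol. The list was chosen by the FPKM difference of Rnf146 between the groups, which was known when it was made, and by what the other 7 genes do or where they lie. The difference between the groups is therefore given for these 8 genes as a description, without a p-value, and supports nothing by itself. Where a member is said to be called or not in the fit across all genes, that only places it within the table.

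The tumours grew in male C57BL/6 mice of 6 weeks from B16F10 cells, a pigmented mouse melanoma line, injected subcutaneously on the left hind leg, and were collected on day 19. The 3 control libraries stand against 3 libraries labelled as overexpressing YKL-40, the secreted chitinase-like protein encoded by Chi3l1. The labels give the genotype of all 6 as WT, and say neither what the control cells carried, nor whether the overexpressing cells were 1 clone, nor that each library is a separate mouse. The gene of YKL-40, Chil1 in the table, had 0.0644, 0 and 0.0242 FPKM in control libraries, against 0 in all 3 YKL-40-labelled libraries, so the table does not show the overexpression and the groups rest on the labels. By its title the study asks how YKL-40 bears on the growth of melanoma.

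Rnf146 is a RING-type ubiquitin ligase that recognises poly-ADP-ribose through its WWE domain. Tankyrases attach poly-ADP-ribose to axin, Rnf146 binds the modified axin and marks it for the proteasome, and axin is the scaffold on which beta-catenin is phosphorylated and prepared for its own degradation. Beta-catenin that escapes enters the nucleus and works with TCF/LEF factors, and Axin2 is a widely used target gene of that complex. In the melanocyte lineage the same pathway feeds into Mitf. The modification and degradation steps act on proteins, which were not measured here, while the RNA of Axin2 and Mitf was.

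Rnf146 lies on the minus strand of chromosome 10 from 29344176 to 29362442 (GRCm38, the assembly called mm10, GENCODE M21), and Echdc1 on the plus strand from 29313166 to 29347469. Echdc1 encodes ethylmalonyl-CoA decarboxylase, an enzyme that removes a side product of fatty acid metabolism. The genes point towards each other and overlap at their ends. A single block of 3129 bases, from 29344341 to 29347469, is exonic in both. It makes up 70.2% of the 4456 exonic bases of Rnf146 and 75.9% of the 4125 exonic bases of Echdc1. Of the 1077 coding bases of Rnf146, 658 (61.1%) lie inside Echdc1 exons, and 406 of the 966 coding bases of Echdc1 lie inside Rnf146 exons. The library kit named in the labels, TruSeq RNA v2, keeps no strand, so fragments from that block cannot be assigned to a gene by strand. Outside it lie 1327 exonic bases of Rnf146 and 996 of Echdc1. RefSeq ends Echdc1 earlier, at 29346661, so the extent of the overlap depends on the annotation.

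**Figure D1:**
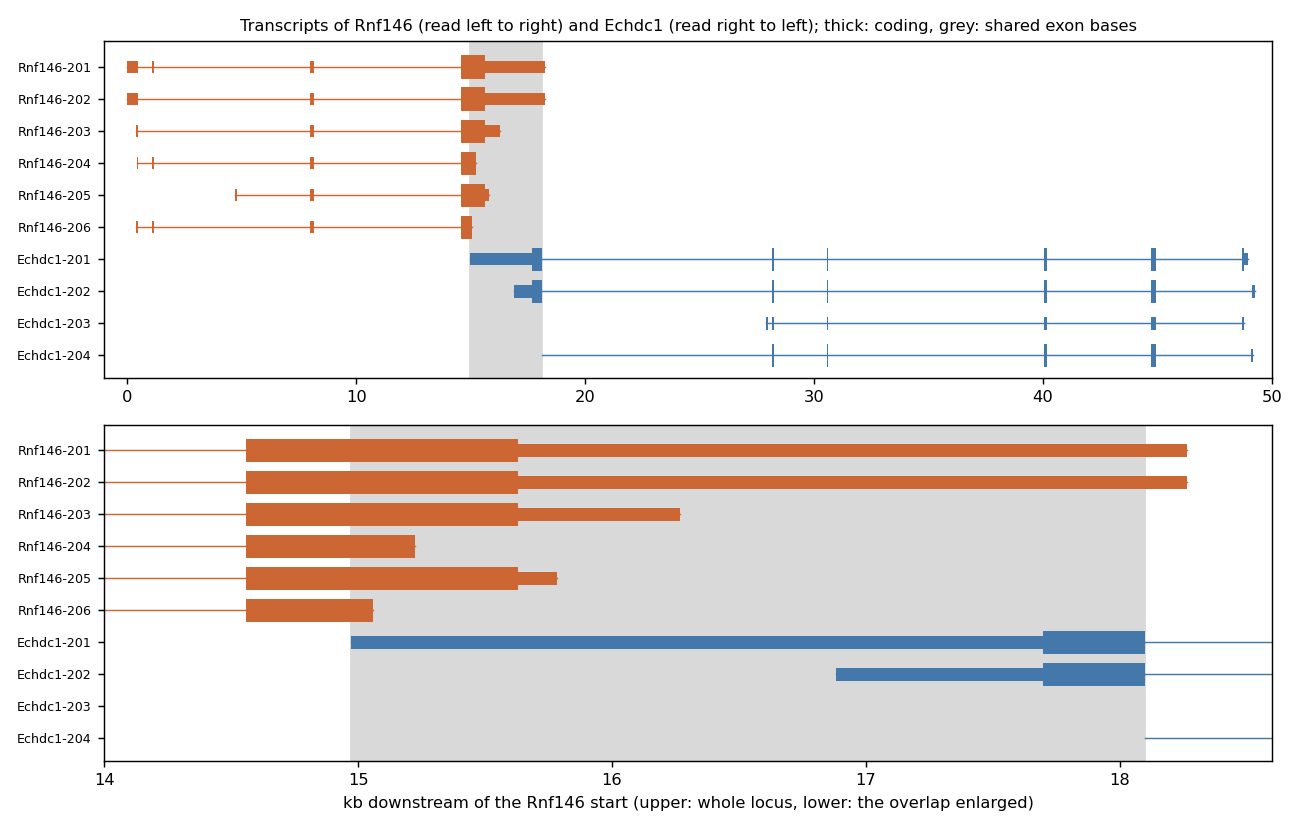
Annotated transcripts of Rnf146 (orange) and Echdc1 (blue) against distance from the Rnf146 start in kb, with the overlap enlarged in the lower panel. Thick boxes are coding, thin boxes are untranslated, and the grey band is the block of 3129 bases that is exonic in both genes.

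The starts of the overlapping pair are far apart, 49276 bases between the outermost ones in GENCODE. RefSeq places the outermost start of Echdc1 still further away, at 29298144. The promoters of the pair do not overlap. The 250 bases before a RefSeq start of each are shown because these genes differed in opposite directions. The window of Axin2, the classical beta-catenin target, is shown as the place where a TCF/LEF match would bear on the pathway, and that of an internal start of Lef1 because it alone among the members' windows held one. All are RefSeq windows of GRCm38.p6, 5' to 3' on the gene's strand, with matches to the TCF/LEF core CTTTGA on either strand in capitals. Rnf146 is at chr10:29362443-29362692 (minus strand), Echdc1 at chr10:29312916-29313165, Axin2 at chr11:108920099-108920348 and the internal Lef1 start at chr3:131156044-131156293 (all plus strand).
Rnf146: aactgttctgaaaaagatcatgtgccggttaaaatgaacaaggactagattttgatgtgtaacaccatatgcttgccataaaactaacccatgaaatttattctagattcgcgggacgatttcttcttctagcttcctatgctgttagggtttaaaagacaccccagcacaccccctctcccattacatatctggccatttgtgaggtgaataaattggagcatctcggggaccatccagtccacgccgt
Echdc1: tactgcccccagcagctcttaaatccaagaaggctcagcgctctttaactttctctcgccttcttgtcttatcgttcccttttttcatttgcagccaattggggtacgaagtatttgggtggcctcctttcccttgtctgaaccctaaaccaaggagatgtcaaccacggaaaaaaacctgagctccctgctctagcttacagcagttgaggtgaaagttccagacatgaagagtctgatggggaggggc
Axin2: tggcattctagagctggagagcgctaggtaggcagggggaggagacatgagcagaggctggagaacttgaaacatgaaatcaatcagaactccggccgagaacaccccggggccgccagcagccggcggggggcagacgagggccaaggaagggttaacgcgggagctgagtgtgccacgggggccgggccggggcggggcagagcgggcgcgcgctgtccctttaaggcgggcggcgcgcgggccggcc
Lef1: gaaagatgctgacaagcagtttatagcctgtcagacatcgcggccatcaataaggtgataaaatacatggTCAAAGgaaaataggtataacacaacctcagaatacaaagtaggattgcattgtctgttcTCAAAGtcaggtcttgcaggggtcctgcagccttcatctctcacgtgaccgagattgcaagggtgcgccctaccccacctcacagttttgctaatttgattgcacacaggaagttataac

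The Rnf146 window shown had 43.2% G and C with 7 CpG, and the Echdc1 window shown 48.8% with 5 CpG. Both are under the median of 52.4% over all promoters of that table. A second Echdc1 window, from 29313250 to 29313499, had 73.2% and 27 CpG, well above that median. A second Rnf146 window, from 29357714 to 29357963, had 41.6% and 0 CpG. The Axin2 window had 69.2% and 24 CpG. RefSeq windows were found for 6 of the 8 genes, 12 windows in all, and not for Tnks and Axin1. The TCF/LEF core occurred in 1 of the 12, at the internal Lef1 start, in the reverse orientation 180 and 120 bases before it. Over all 32851 windows of this length 13.8% held a match. A match in these letters is a description and does not show binding, and its absence says only that these letters are not in the window.

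Rnf146 had 10.2, 11.4 and 11.3 FPKM (fragments per kilobase of transcript, scaled to library size) in control libraries, against 38.2, 32.8 and 40.0 FPKM in YKL-40-labelled libraries. The lowest YKL-40-labelled library was at 32.8 FPKM, far above the highest control, and the spread within each group was small. The means were 10.9 ± 0.669 and 37.0 ± 3.75 FPKM (SD, n = 3), a 3.39-fold difference. On the log2(FPKM + 1) scale, on which all differences below are YKL-40-labelled minus control, this is 1.67 ± 0.11 (SE). Rnf146 was the 1 member called in the limma fit across all tested genes (Benjamini-Hochberg adjusted p under 0.05), of 7 members tested. Of all 11241 tested genes, 49 (0.436%) were called, and since the list was made with this contrast known, nothing is read from the comparison of these shares. Since its difference chose the list, the call is no further support. It was not called without control 2, nor with the level of skeletal muscle genes as a covariate, where the change was 1.52, and no gene at all was called in either.

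Echdc1 differed in the opposite direction. It had 47.4, 49.3 and 41.1 FPKM in control libraries, against 33.2, 31.8 and 35.2 FPKM in YKL-40-labelled libraries. Every YKL-40-labelled library was lower than every control. The means of 45.9 ± 4.30 and 33.4 ± 1.69 FPKM differed 1.37-fold, or by -0.44 ± 0.10 on the log2 scale. Echdc1 was not called, except with array quality weights, an analysis that called 9.88% of all tested genes. Groups that do not overlap were seen for 2 of the 7 tested members, these 2 genes, and for 24.4% of all tested genes.

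The ratio of Rnf146 to Echdc1 within a library, 2 values per length, was 0.214, 0.230 and 0.274 in control libraries, against 1.15, 1.03 and 1.14 in YKL-40-labelled libraries. Echdc1 was thus the higher of the pair in each control, and Rnf146 was slightly the higher in each YKL-40-labelled library. The sum of their FPKM was 57.5, 60.7 and 52.3 in control libraries, against 71.4, 64.6 and 75.2 in YKL-40-labelled libraries. All 3 YKL-40-labelled sums were above all 3 control sums. This follows from the Rnf146 difference in mean of 26.1 FPKM, which chose the list, beside one of -12.5 for Echdc1. Values per length of genes of unlike length do not add up to a total of fragments. How the fragments of the shared block were divided between the genes was not tested, and the table holds no exon values with which to do it.

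**Figure D2:**
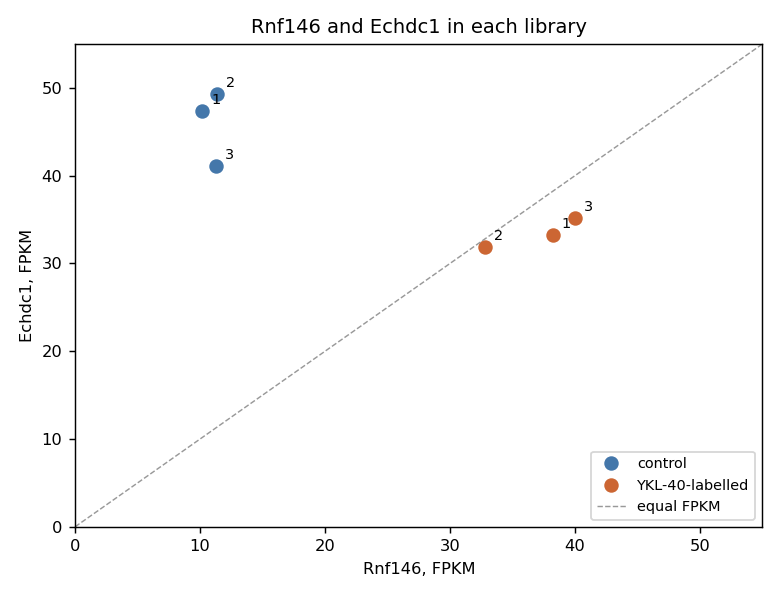
FPKM of Rnf146 (x axis) against FPKM of Echdc1 (y axis) in each of the 6 libraries, numbered by replicate. The controls sit at the upper left, and the YKL-40-labelled libraries sit just below the dashed line of equal FPKM, where the ratio is 1.03 to 1.15.

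An overlap of this size is rare among the tested genes. Of 11135 tested genes matched to a single GENCODE gene, 19 (0.171%) shared at least 70.2% of their exonic bases, the part that Rnf146 shares. The sharing was counted with 1 tested gene on the opposite strand, and Rnf146 itself and Echdc1 are among the 19. In 4 pairs at least 50% of the exonic bases of both genes were shared, a limit chosen after the values were seen. In the other 3, among them Chaf1a with Ubxn6 and Ikzf5 with Pstk, both genes had changes of the same sign, and the changes within a pair differed by at most 0.24. For Rnf146 and Echdc1 they differed by 2.11. Among the other members, 14.6% of the exonic bases of Ctnnb1 are shared with exons of Ulk4, and Tnks, Tnks2, Axin1, Axin2 and Lef1 share none with a gene of the table.

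In the limma fit without weights no gene near Rnf146 other than itself was called. Within 250 kb of it RefSeq places 12 genes, itself and Echdc1 included, of which 5 are in the table and 3 could be tested. Soga3 had 2.74 ± 0.471 and 2.00 ± 0.439 FPKM in controls and YKL-40-labelled libraries (-0.32 ± 0.16, adjusted p = 0.347 in limma). The clone-named 9330159F19Rik, at 0.637 ± 0.169 and 0.575 ± 0.111 FPKM, lay below the filter of a mean of 1 FPKM. So did Rspo3, the gene of a secreted enhancer of Wnt signalling, at 0.0245 ± 0.0209 and 0.0744 ± 0.0534 FPKM.

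The tankyrases, the poly-ADP-ribose polymerases that modify axin, were near level. Tnks (chromosome 8, 34826460 to 34965690) had 15.4, 13.6 and 14.4 FPKM in control libraries, against 11.02, 15.5 and 13.2 in YKL-40-labelled libraries. The groups overlapped, with YKL-40-labelled libraries 1 and 3 below and library 2 above all controls, and the difference was -0.13 ± 0.13. Tnks2 (chromosome 19, 36834232 to 36893477) was at 49.4, 45.0 and 43.9 FPKM against 46.1, 44.7 and 47.1. Its means were 46.1 ± 2.89 and 46.0 ± 1.22 FPKM, a log2 difference of -0.002 ± 0.09. Tnks2 was the more abundant tankyrase per length in every library, by 3.06- to 3.30-fold in control libraries, against 2.88- to 4.19-fold in YKL-40-labelled libraries. The ratio of Rnf146 to Tnks per length was 0.660, 0.834 and 0.784 in control libraries and 3.47, 2.11 and 3.02 in the others, so Rnf146 was below Tnks in every control and above it in every YKL-40-labelled library.

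Axin1 (chromosome 17, 26138688 to 26195811), the constitutive scaffold of the destruction complex, had 24.1, 23.1 and 22.4 FPKM in control libraries, against 20.2, 25.03 and 21.8 in YKL-40-labelled libraries. The groups overlapped and the difference was -0.06 ± 0.10. Its feedback-induced relative Axin2 (chromosome 11, 108920349 to 108950783) was much lower, at 1.61, 2.31 and 1.87 FPKM against 1.71, 3.41 and 3.02. YKL-40-labelled libraries 2 and 3 were above all controls and library 1 was among them, so the groups overlapped. The means were 1.93 ± 0.351 and 2.71 ± 0.892 FPKM, a difference of 0.32 ± 0.21 that was 0.53 with YKL-40-labelled library 1 left out and 0.18 with library 2 left out. Axin1 exceeded Axin2 by 10.0- to 15.0-fold per length in control libraries, and by 7.22- to 11.8-fold in YKL-40-labelled libraries.

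Ctnnb1 (chromosome 9, 120929216 to 120960507), the gene of beta-catenin, was the most abundant member, above 98.9% of all tested genes by mean FPKM. It had 548, 499.8 and 482 FPKM in control libraries, against 429, 572 and 537 in YKL-40-labelled libraries. Both the lowest and the highest value belonged to the YKL-40-labelled group. The means were 509.8 ± 34.0 and 513 ± 74.8 FPKM and the difference was -0.0004 ± 0.13, ranging from -0.08 to 0.12 when single libraries were left out.

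Lef1 (chromosome 3, 131110471 to 131224356), a DNA-binding partner of beta-catenin that is also made in T cells, was close to 0. The controls had 0.0883, 0 and 0 FPKM and the YKL-40-labelled libraries 0.286, 0.113 and 0.402. Each YKL-40-labelled library was above each control, but at a mean of 0.148 FPKM Lef1 lay below the filter and was the 1 member not tested. No fold is given against controls listed at 0. T cell markers moved with it. All 18 markers on that list had some signal, 0 were at 0 in all libraries, and their summed level was 4.03 to 9.99 FPKM in control libraries, against 18.5 to 41.7 in YKL-40-labelled libraries. Within the latter, Lef1 and that sum had the same order, library 3 highest and library 2 lowest. The controls did not share it: Lef1 was above 0 in control 1 alone, which had the lowest sum of T cell markers. Of single T cell markers, picked with their values known, Cd3d, Cd3g, Cd8b1 and Bcl11b were listed at 0 in control 1. All others on the list were above 0 there, among them Cd8a at 0.135 FPKM and Cd3e at 0.120, its highest control value. The part of T cells in the Lef1 values was not tested, and in RNA of whole tumours more cells of a type and more RNA per cell cannot be told apart.

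**Figure D3:**
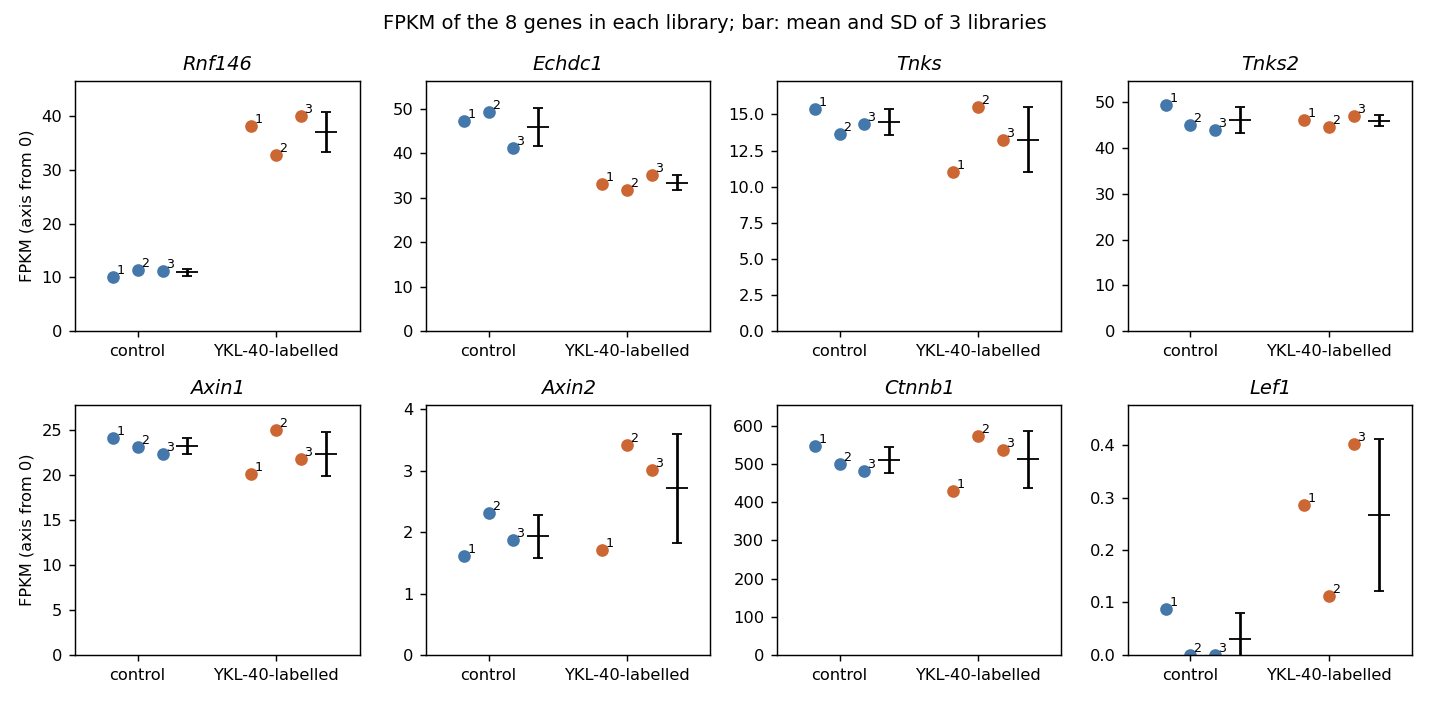
FPKM of the 8 genes in each library, each axis starting at 0, with the 3 controls in blue, the 3 YKL-40-labelled libraries in orange, and the mean with SD in black. Rnf146 separates the groups upwards and Echdc1 downwards, while Tnks, Tnks2, Axin1, Axin2 and Ctnnb1 overlap and Lef1 stays under 0.402 FPKM or at it.

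Per length, the order of the members in the controls was Ctnnb1, Tnks2, Echdc1, Axin1, Tnks, Rnf146, Axin2 and Lef1. Tnks2 and Echdc1 overlapped in that group, and all other neighbours in the order were apart. In the YKL-40-labelled libraries Rnf146 moved up to the third place, above Echdc1 by mean but overlapping with it, and the other genes kept their order. This comparison carries the limit of the shared block for Rnf146 and Echdc1.

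Several members shared their order of libraries within a group. Control 1 had the highest Tnks, Tnks2, Axin1 and Ctnnb1 and the lowest Rnf146 and Axin2 of the controls. YKL-40-labelled library 2 had the highest Tnks, Axin1, Axin2 and Ctnnb1 and the lowest Rnf146, Echdc1 and Tnks2 of its group, and library 1 the lowest Tnks, Axin1, Axin2 and Ctnnb1. After the group means were subtracted, Rnf146 had a Pearson r over the 6 libraries of -0.83 with Axin1 and -0.73 with Tnks. The r was -0.57 with Ctnnb1, -0.19 with Axin2, -0.09 with Tnks2 and 0.27 with Echdc1. These are descriptions of 6 points from which 2 means were taken, and the values of a library share its depth and tissue mix.

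Among the genes most like Rnf146 over the 6 libraries were Il17rc (Pearson r 0.99), Prpsap1 (0.99), Il2rb (0.99) and Gjb2 (0.99). Most unlike it were Mak16 (-0.995), Dlg3 (-0.99) and Zfp109 (-0.99). Since Rnf146 falls into 2 separate clusters, such a correlation mostly restates the difference between the groups, and 100 genes had an r above 0.95 and 105 one below -0.95. The sizes were unequal. Il17rc went from 13.7 ± 0.630 to 20.7 ± 1.15 FPKM, and Prpsap1 only from 34.6 ± 0.653 to 39.3 ± 0.537. Il2rb, a receptor chain of lymphocytes, went from 0.746 ± 0.203 to 10.1 ± 4.19. Within the groups, the genes most like Rnf146 were Fgl2, Pde10a and Slamf9, with an r of 0.998, 0.994 and 0.992. They were picked as the highest among the tested genes, over 6 points from which 2 group means were taken. These values are therefore a description only.

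**Figure D4:**
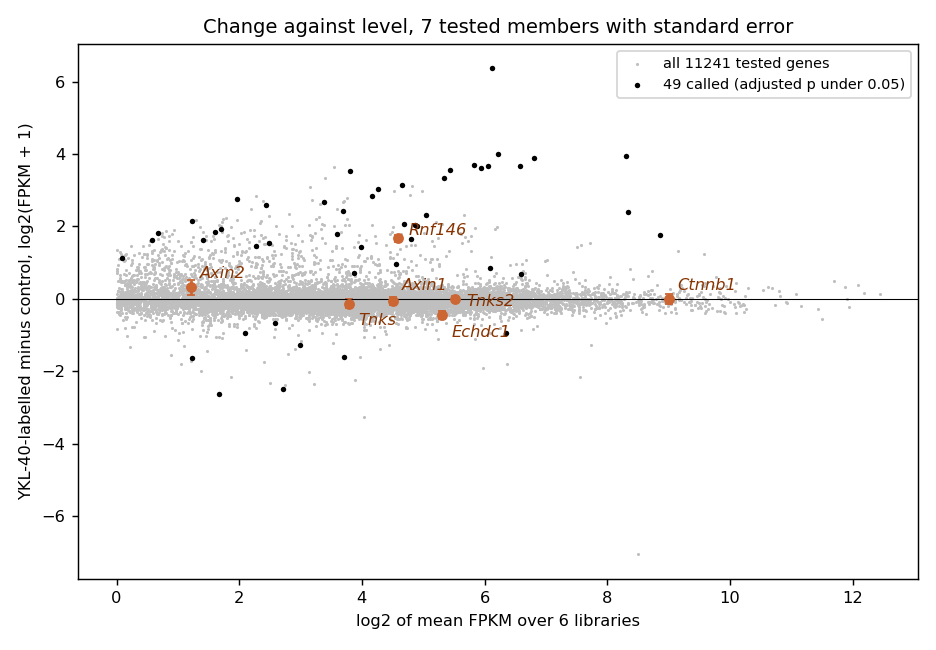
Change between the groups (y axis, log2 scale) against the log2 mean FPKM (x axis) for all 11241 tested genes in grey, the 49 called genes in black and the 7 tested members in orange with their standard error. Rnf146 stands at 1.67, Echdc1 at -0.44, and the other 5 lie between -0.13 and 0.32.

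Around these members, 9 lists of genes that act in the same pathway or on poly-ADP-ribose were read from the same fit. They hold 172 genes besides the members, of which 118 could be tested. In limma 0 of the 118 were called, while 20 (16.9%) had an unadjusted p under 0.05, 10 higher and 10 lower, against 18.0% of all tested genes. With array quality weights 12 were called (10.2%), against 9.88% of all tested genes, and of the genes named below these were Fzd7, Dkk3, Sfrp2, Apc2, Pygo1, Tnfrsf19, Parp11, Parp12 and Parp14. With YKL-40-labelled library 2 left out Dkk3, Sfrp2, Apc2 and Parp14 were called, and with library 3 left out Parp14. The counts at an unadjusted p under 0.05 given below for single lists are to be read against the same 18.0%. The median change of the 118 was -0.07, and that of all tested genes -0.04.

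Wnt ligands were scarce. Of 21 genes for ligands and their secretion, 2 reached the filter, both of them secretion genes. Wls, which carries Wnt proteins to the cell surface, had 22.6 ± 2.86 and 22.7 ± 1.83 FPKM, and Porcn, which attaches their lipid, 0.991 ± 0.272 and 1.04 ± 0.408. Of 24 receptor and R-spondin module genes 13 were tested, with a median change of -0.12 and 1 higher at an unadjusted p under 0.05. That was the frizzled receptor gene Fzd7, with 68.9 ± 3.41 FPKM in control libraries, against 90.9 ± 3.75 in YKL-40-labelled libraries (0.40 ± 0.09, limma adjusted p = 0.0881). The coreceptors Lrp5 and Lrp6 had 18.7 ± 0.643 and 41.2 ± 4.77 FPKM in control libraries, against 15.8 ± 3.02 and 35.3 ± 1.88 in the others.

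Of 18 inhibitors 4 were tested. Dkk3, of the dickkopf family, had 89.0 ± 17.5 FPKM in control libraries, against 46.4 ± 10.3 in YKL-40-labelled libraries, a change of -0.93 ± 0.19 (limma adjusted p = 0.0845). Sfrp2, a secreted frizzled-related gene picked with its values known, had 0.291, 0.577 and 1.52 FPKM in control libraries, against 5.83, 2.09 and 6.20 in the others (1.63 ± 0.38, limma adjusted p = 0.0965). Fibroblast markers stood beside it with a summed level of 56.1 to 305 FPKM in control libraries, against 273 to 463 in YKL-40-labelled libraries, all 10 of them above 0, and their part in Sfrp2 was not tested. Frzb and Kremen1 had changes of -0.17 and -0.15.

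All 21 genes of the destruction complex and Dishevelled were tested, with a median change of -0.09, beside -0.04 for all tested genes. At an unadjusted p under 0.05 there were 4 of the 21, all lower, a share near the 18.0% of all tested genes. Apc and Apc2, 2 of these and chosen after their values were seen, encode the other scaffold of the complex. Apc had 26.0, 23.3 and 21.3 FPKM in control libraries, against 14.1, 20.1 and 18.0 in YKL-40-labelled libraries (limma adjusted p = 0.198). Apc2 had 3.28, 5.28 and 5.41 against 1.47, 3.36 and 1.27 (adjusted p = 0.157 in limma). The most abundant genes of the list, Ppp2ca, Fbxw11 and Csnk1a1, had changes of -0.13, -0.13 and -0.03. The kinase genes Gsk3a and Gsk3b, chosen in the same way as Apc, had 0.03 and -0.09.

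Of 19 nuclear partners of beta-catenin 18 were tested, with a median change of -0.08 and, at an unadjusted p under 0.05, 1 higher and 2 lower. Pygo1, whose protein reads histone marks in the beta-catenin complex, had 28.4 ± 2.41 and 19.0 ± 2.54 FPKM (-0.56 ± 0.12, limma adjusted p = 0.0881), and its relative Pygo2 25.1 ± 1.78 and 25.7 ± 0.725. The corepressor gene Tle3 had 30.4 ± 7.80 and 40.4 ± 2.67. Of 24 target genes of beta-catenin 11 were tested, and 5 of the 24 were at 0 in every library. The median change was -0.10. Cd44, Mitf and Ccnd1, the most abundant, had changes of 0.13, -0.20 and -0.12. Mitf, the master regulator of melanocytes, spread from 44.9 to 129 FPKM within YKL-40-labelled libraries. It was lowest in library 1 like Axin2 and Ctnnb1, but its highest library was not the one in which those were highest. At an unadjusted p under 0.05 there was 1, Tnfrsf19, with 1.23 ± 0.148 and 2.05 ± 0.383 FPKM (limma adjusted p = 0.186).

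Among partners and substrates of tankyrase or Rnf146 all 24 were tested, the median change was -0.05, and 1, the angiomotin gene Amot, was lower at an unadjusted p under 0.05 (-0.37 ± 0.14, limma adjusted p = 0.231). Ube2d3, which encodes a ubiquitin-conjugating enzyme, had 416 ± 18.1 and 396 ± 56.8 FPKM, and Amotl1 and Lnpep had changes of -0.25 and -0.23. Of 19 enzymes and readers of poly-ADP-ribose 18 were tested, with a median change of 0.00 and, at an unadjusted p under 0.05, 2 higher and 2 lower. Parp1, the main nuclear polymerase, had 47.2 ± 2.63 and 42.5 ± 7.57 FPKM, Lig3 had 125 ± 3.996 and 112 ± 5.34, and Nampt, which makes the NAD precursor, 76.0 ± 5.00 and 102 ± 17.7 (limma adjusted p = 0.204).

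Other genes with the WWE domain of Rnf146 had the highest median of the 9 lists, 0.20 over 10 tested genes. At an unadjusted p under 0.05 there were 4 of the 10, all higher, beside 18.0% of all tested genes, and whether the list differs from other genes was not tested. The largest change was that of Parp14, with 14.2, 18.9 and 16.8 FPKM in control libraries, against 45.2, 43.1 and 88.0 in YKL-40-labelled libraries (1.69 ± 0.27, limma adjusted p = 0.0637). Parp12 had 25.3 ± 5.14 and 51.2 ± 14.3 FPKM (adjusted p = 0.0881 in limma). Parp11 had 5.91 ± 0.711 and 10.9 ± 4.30. These 3 were chosen after their values were seen, and Parp12 and Parp14 are known as interferon-induced genes. Zc3hav1, also among the 4 higher genes, had 67.1 ± 4.37 and 82.7 ± 11.1 FPKM (0.29 ± 0.12, limma adjusted p = 0.268). The ligases Huwe1 and Trip12 had changes of -0.17 and 0.06.

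**Figure D5:**
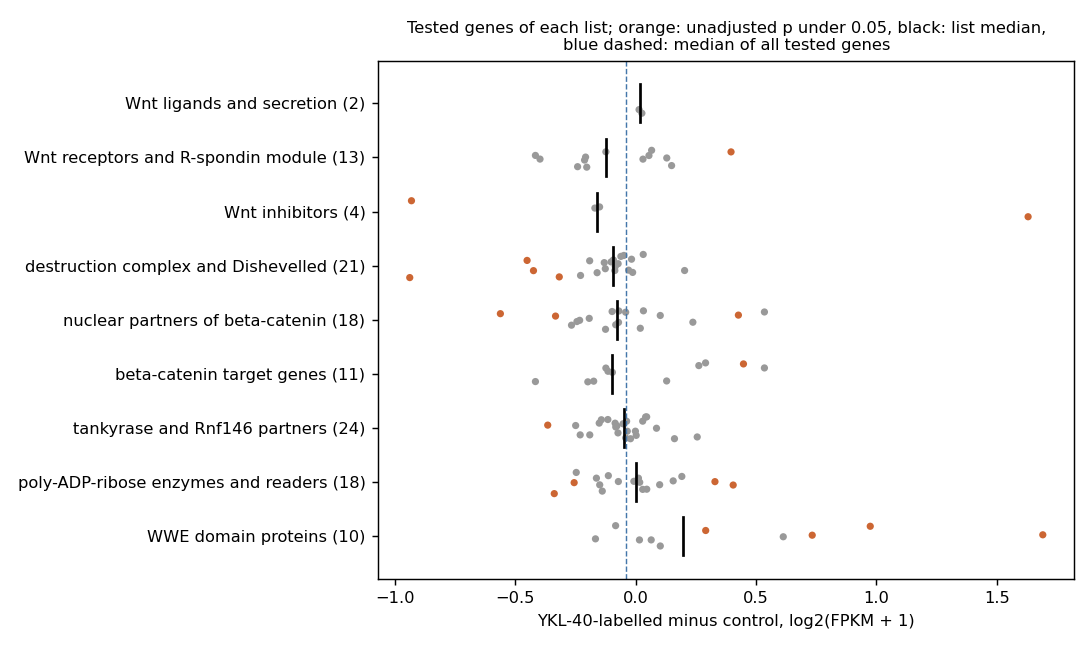
Change between the groups (x axis, log2 scale) of each tested gene in the 9 lists, with the number tested in brackets, orange where the unadjusted p was under 0.05, black bars at the list medians and a dashed line at the median of all tested genes, -0.04. The list medians run from -0.16 for the inhibitors to 0.20 for WWE domain genes, and no gene of these lists passed the adjustment.

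Markers of some other cell types stood at different levels in the groups, with no overlap for the sums of T cell, macrophage and skeletal muscle markers, while those of fibroblast and endothelial markers overlapped. The summed level of 11 melanocyte markers was 8711 to 10197 FPKM in control libraries, against 8717 to 10878 in YKL-40-labelled libraries, so the label of melanoma tumour was met in both. Macrophage markers summed to 95.6 to 304 and 344 to 496 FPKM (13 of 13 above 0), and endothelial markers to 123 to 200 and 143 to 192 (11 of 11). Skeletal muscle markers summed to 48.8 to 208 FPKM in control libraries, against 5.48 to 32.3 in the others (16 of 16 above 0 in some library, with Myod1 at 0 in all 3 YKL-40-labelled libraries). Within the controls the muscle sums were 89.3, 48.8 and 208 FPKM and the fibroblast sums 56.1, 123 and 305, while Rnf146 had 10.2, 11.4 and 11.3. The part of these cells in the difference between the groups was not tested. The fit with the muscle covariate cannot cleanly separate muscle from group, since the muscle sums of the groups did not overlap. In it the SE of the Rnf146 change was 0.20, against 0.11 without the covariate, and it holds no other cell type.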

How the data were processed

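Tumour RNA of 6 libraries was sequenced, and the authors deposited 1 FPKM value per gene and library. Per the submitters' processing notes the tools were StringTie, HISAT2, limma, DESeq2 and bcl2fastq 2.0 with the build mm10, without their roles, and the annotation was not given in the sources used here. Total read numbers are unknown, so no counting error can be given. All 6 columns were used.

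The 11241 of 20938 genes whose mean reached 1 FPKM were compared as log2(FPKM + 1) with limma 3.58.1 in R 4.3.3 (variance trend, two-sided, Benjamini-Hochberg over all tested genes, threshold 0.05). The procedure was tested on simulated data with independent noise for each gene. That simulation held no tissue mix or other effect shared by the genes of a library. The labels do not tie libraries to separate mice, so a p-value here reflects only how far these libraries spread. Members and lists were chosen with earlier results of these data known. Besides the members, genes were named by a rule: those called in a list, else its most abundant up to 3, genes within 250 kb of Rnf146, and the genes most and least correlated with it. Others are marked as chosen after their values were seen, and some genes the rule names are not reported here. Gene models came from GENCODE M21 and promoters from RefSeq GRCm38.p6. Alternatives were other pseudocounts (0.1, 0.01), filters (none, 5 FPKM), scalings, no trend, array weights, a replicate block, a muscle covariate and leaving out each library.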

Additional observations from a re-analysis of the deposited data

How the results depend on the processing

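The number of genes called depended on single libraries. It was 49 in all and between 0 and 238 with 1 library left out. Dropping control 1, 2 or 3 left 2, 0 and 209 calls, and dropping YKL-40-labelled library 1, 2 or 3 left 4, 238 and 35. Where it was 0, limma still gave 1345 genes with an unadjusted p under 0.05. The count was 1 with no filter, 1111 with array quality weights, 120 with the replicate block and 0 with the muscle covariate (601 at an unadjusted p under 0.05 in limma). The count of called members was 1. It became 2 with array quality weights (Rnf146 and Echdc1), 0 with the muscle covariate, and ran from 0, without control 2, to 1 when single libraries were left out. The count over the pathway lists was 0. It became 12 with array quality weights, 2 with the replicate block (Dkk3 and Parp14), and ran from 0 to 4 with single libraries left out, reaching 4 with YKL-40-labelled library 2 left out and 1 with library 3 left out. The cause of these shifts was not tested. The labels do not say whether replicate numbers pair the libraries. The deviations of same-numbered libraries correlated at -0.08, -0.19 and 0.00, and so few values cannot decide it. The change of Rnf146 ran from 1.52 to 1.76 over the 16 alternatives and that of Echdc1 from -0.69 to -0.39, and neither changed sign. That of Axin2 ran from 0.18 to 0.53, while Tnks, Tnks2, Axin1 and Ctnnb1 changed sign in 1, 4, 2 and 5 alternatives. Lef1 had 0.29, and 1.48 and 3.52 with pseudocounts of 0.1 and 0.01.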
